A study of Drosophila melanogaster with 3 samples.

Results

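su(Hw) is a DNA-binding protein of chromatin insulators, elements that can stop an enhancer from acting on a promoter when they lie between them. It was first known through the X chromosome of Drosophila melanogaster: mutations in su(Hw) suppress the effects of gypsy retrotransposons inserted at X-linked genes such as y, ct and f, because gypsy carries a cluster of su(Hw) sites. The X is also the chromosome that is dosage compensated, since males carry a single copy and the MSL complex raises its transcription with the help of the roX RNAs. The summits of su(Hw) peaks on X are described here. They were all rows of chromosome X in the list of peaks that the authors thresholded by the irreproducible discovery rate, a measure of how reproducibly peaks rank between replicates. There were 1056 of these among 6127 peaks in all, and they were set against the 3858 summits of the autosomal arms 2L, 3L and 3R (1108, 1287 and 1463 summits).

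Chromatin immunoprecipitation sequencing was carried out on 1 group of whole embryos, collected 0 to 24 hours after egg laying, in 3 biological replicates. The line carries a transgene that expresses su(Hw) with green fluorescent protein at its C terminus, and the tag was immunoprecipitated, while the labels list su(Hw) itself as the antibody. Males and females were pooled, so the embryos held fewer copies of X than of each autosome. The labels give neither the sex ratio nor whether the untagged su(Hw) gene was still present, and embryos of all stages and cell types were mixed. The labels give no condition other than this one, so chromosome arms, and not treatments, were compared. Each replicate list held 30000 peaks, and the number of reads behind them is unknown. All intervals below are exact Clopper-Pearson 95% intervals that cover counting error only, and the tests on shares treat summits as independent, which neighbouring summits are not.

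Sequences under strong X peaks that were chosen for holding the su(Hw) consensus are given first. An exact match lay near 6.44% of all X summits. The 8 strongest X peaks that held an exact match to the 12-base su(Hw) consensus within 100 bp of the summit are printed with the match in capitals and 14 bases on either side, 5′ to 3′ on the strand of the match (Release 6, the dm6 build). The lines give the gene that holds the summit, or otherwise that of the nearest protein-coding start.
upd2, chrX:18239444-18239483, plus strand: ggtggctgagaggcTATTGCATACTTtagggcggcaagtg
CG32816, chrX:361600-361639, plus strand: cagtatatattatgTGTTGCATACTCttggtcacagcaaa
RpS15Aa, chrX:13334945-13334984, minus strand: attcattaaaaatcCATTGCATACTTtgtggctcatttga
CG15468, chrX:4956462-4956501, plus strand: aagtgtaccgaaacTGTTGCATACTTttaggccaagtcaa
CrebB, chrX:18366095-18366134, minus strand: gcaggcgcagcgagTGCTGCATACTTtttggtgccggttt
Diedel3, chrX:19028751-19028790, plus strand: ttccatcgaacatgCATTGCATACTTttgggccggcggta
tw, chrX:784547-784586, plus strand: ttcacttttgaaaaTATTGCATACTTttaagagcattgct
CCKLR-17D3, chrX:18772140-18772179, minus strand: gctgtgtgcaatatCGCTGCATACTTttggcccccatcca
These peaks had ranks of 80 (upd2) to 214 (CCKLR-17D3) among all chromosomes by pooled signal. The gene upd2 encodes a ligand of the JAK/STAT pathway, RpS15Aa a protein of the small ribosomal subunit, CrebB a cAMP-responsive transcription factor, tw a protein O-mannosyltransferase and CCKLR-17D3 a neuropeptide receptor. The core TGCATA runs through all of them because the consensus contains it.

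The next lines print the 201 bases around the summits of the strongest X peak and of the peak past the end of y, both on the plus strand, with the matches of up to 1 mismatch in capitals. The first was chosen for its strength, and the second because it lies between y and ac, where an endogenous su(Hw) insulator of the genome is known.
Strongest X peak, chrX:3570424-3570624: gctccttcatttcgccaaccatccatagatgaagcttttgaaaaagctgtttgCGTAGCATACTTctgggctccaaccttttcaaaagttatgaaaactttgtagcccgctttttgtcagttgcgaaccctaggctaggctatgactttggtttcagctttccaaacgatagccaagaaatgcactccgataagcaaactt
Peak past y, chrX:361518-361718: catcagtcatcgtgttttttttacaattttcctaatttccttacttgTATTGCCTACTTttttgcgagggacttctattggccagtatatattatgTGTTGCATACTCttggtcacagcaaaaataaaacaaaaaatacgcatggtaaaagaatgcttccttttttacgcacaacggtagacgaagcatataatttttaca
The strongest X peak held 1 match, with 1 mismatch. The peak past y held 2 matches in the same orientation, 1 of them exact, whose centre lay 1.5 bp from the summit.

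The density of su(Hw) summits on X could not be told from that of the autosomes. X carried 45 summits per Mb of sequenced bases, against 46.2 per Mb on 2L, 3L and 3R together and 45.6 to 47.1 per Mb on the single arms. Of the 4914 summits on these 4 arms, 21.5% (interval 20.3 to 22.7) lay on X, and X has 21.9% of the sequenced bases of these arms (p = 0.459 in a two-sided exact binomial test). The pooled list of 30000 entries is named by the authors as peaks and background, so its weak entries may not be su(Hw) peaks. In it X had 242 entries per Mb, against 221 per Mb on the autosomal arms. The thresholded summits were thus 18.6% as many as the pooled entries on X, against 20.9% on the autosomal arms. Along X, the 23 full bins of 1 Mb held 4 to 70 summits with a median of 48. The bin with 70 spanned 7000001 to 8000000, and the bin with 4 spanned 22000001 to 23000000, next to the centromeric end of the arm. Summits per bin followed the number of protein-coding genes per bin (Pearson's r = 0.622 and Spearman's rho = 0.65 across the 23 bins, a description of bins that share 1 chromosome).

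The location of X summits relative to genes was where X stood apart. Fewer X summits lay at promoters and more lay in introns than on the autosomes. Promoters, taken as the 1000 bp before and the 100 bp after a protein-coding transcript start, held 462 of the 1056 X summits, or 43.8% (40.7 to 46.8), against 51.9% (50.3 to 53.5) of autosomal summits. The X share was lower than that of every arm compared, which ranged between 49.6% on 3L and 53.5% on 3R. Introns held 390 X summits, or 36.9% (34 to 39.9), against 27.9% (26.5 to 29.3) on the autosomes, with 26.6% on 2L, 28% on 3L and 28.7% on 3R. By Fisher's exact test, the promoter share on X minus that on the autosomes was -8.17 points, with an odds ratio of 0.72 (0.628 to 0.826) and an adjusted p = 2.43e-05. The intron share was 9.07 points higher on X by the same exact test, with an odds ratio of 1.52 (1.31 to 1.75) and an adjusted p = 3.3e-07. The tests were two-sided and the p-values adjusted by Benjamini-Hochberg over 18 shares of summits or genes, of which these 2 passed 0.05 and 4 had an unadjusted p under 0.05. Against single arms, adjusted over 6 pairs, the promoter share of X differed from that of 2L (p = 5.17e-05), 3L (p = 0.00531) and 3R (p = 4.63e-06), and the intron share likewise (p = 1.67e-06, 8.92e-06 and 2.28e-05 for 2L, 3L and 3R), all by the same exact test.

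**Figure D1:**
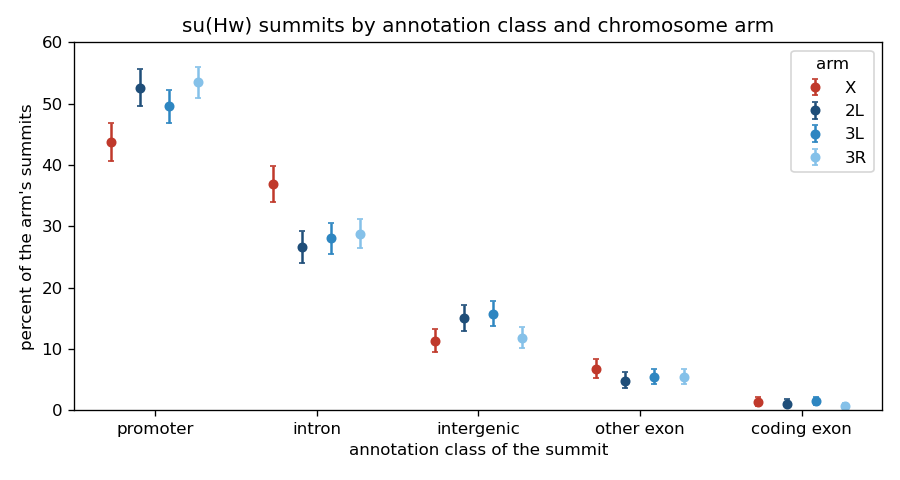
Percent of the summits of each arm (y axis) in each annotation class (x axis) for X (1056 summits), 2L (1108), 3L (1287) and 3R (1463); points are shares and bars exact 95% intervals. X lies below the other 3 arms for promoters (43.8% against 49.6% to 53.5%) and above them for introns (36.9% against 26.6% to 28.7%).

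Each replicate list showed both differences on its own. In the 6127 strongest peaks of replicates 1, 2 and 3, promoters held 43.7%, 45.2% and 43.5% of X peaks, against 50.8%, 51.6% and 52.1% of autosomal peaks. Introns held 37.5%, 34.7% and 37.6% of X peaks, against 28.3%, 26.8% and 26.8% of autosomal peaks. In all 3 replicates X lay below each of the 3 arms for promoters and above each of them for introns. The difference averaged -7.36 points ± 1.14 (SD, n = 3) for promoters and 9.29 points ± 1.43 (SD, n = 3) for introns. An exact sign-flip permutation test over the replicates gave a two-sided p = 0.25 for both, the smallest that 3 replicates allow, so the design cannot reach 0.05 at this level. The replicates share the same chromosomes, so their SD and this test cover repeated measurement and not variation between arms. The promoter difference varied with how many peaks were taken, which was not tested. Over all 30000 peaks of each replicate list, promoters held 30.6% of X peaks and 30.2% of autosomal peaks, a mean difference of 0.401 points. The intron difference was then 2.65 points (44.3% and 41.7%). The pooled list of the same length is named by the authors as peaks and background, so the weak entries may include background.

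Within the thresholded list both differences were smallest in the weakest peaks. Among peaks of rank 1 to 1225, promoters held 33.8% (27.3 to 40.8) of X summits, against 44.1% (40.6 to 47.7) of autosomal summits, and introns held 32.3%, against 22.7%. At ranks 1226 to 2450 the promoter shares were 43.1% on X and 53.5% on the autosomes, with 41.2% and 28.1% in introns. At ranks 2451 to 3676 they were 45.3% on X and 56.4% on the autosomes, with 40.4% and 25.4% in introns. The gap was narrower at ranks 3677 to 4901 (promoters 47.5% on X and 55.1% on the autosomes) and smallest at ranks 4902 to 6127, where promoters held 48.3% of X summits and 50.2% of autosomal ones and introns 35% and 34%. The intervals of X and autosomes overlapped in these weakest peaks. At ranks 3677 to 4901 they also overlapped, for promoters (40.5 to 54.7 and 51.6 to 58.6) and introns (29 to 42.7 and 26.2 to 32.7). The promoter intervals overlapped narrowly at ranks 1 to 1225 and met at 49.9% at ranks 1226 to 2450. The differences by rank were not tested.

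**Figure D2:**
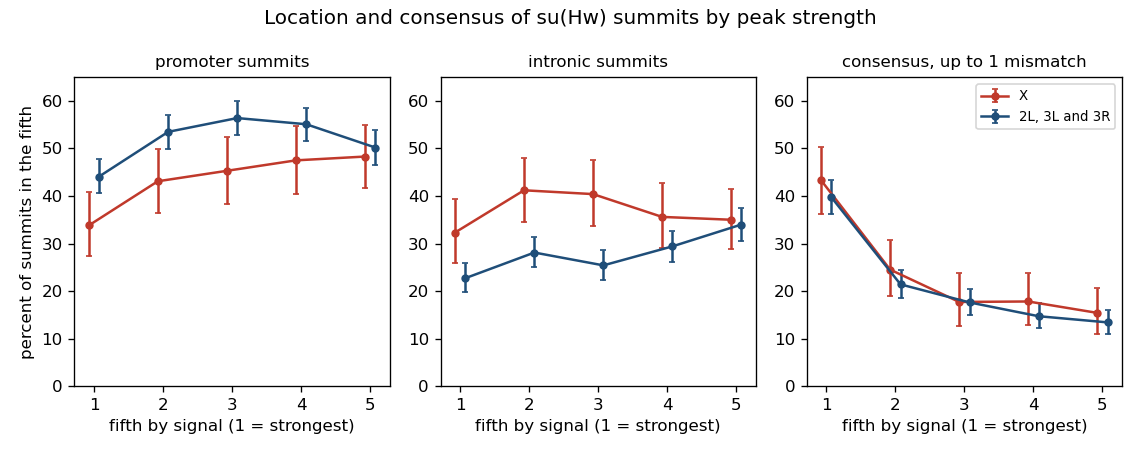
Percent of summits (y axis) at promoters, in introns and with the su(Hw) consensus (up to 1 mismatch), for X and for 2L, 3L and 3R together, in 5 ranges of pooled signal from strongest to weakest (x axis); bars are exact 95% intervals. The promoter and intron curves of X and autosomes lie apart in the stronger peaks and come together in the weakest (48.3% on X and 50.2% on the autosomes at promoters), while the consensus curves lie close throughout.

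X also has somewhat more intron sequence and fewer genes. Introns covered 43.1% of X bases, against 39.4% of autosomal bases, and promoter windows covered 11.8% of X bases, against 12.2%. The summit share divided by the base share was 0.856 for introns on X, against 0.708 on the autosomes, and 3.71 for promoters on X, against 4.25. Arm 3R had as much intron sequence as X (43.4% of its bases) and held 28.7% of its summits there, against 36.9% on X. The introns of the 2 arms were not alike, however. On 3R 29.9% of intron bases lay over 20 kb from a protein-coding start, against 15.8% on X. X had 93.3 protein-coding genes per Mb, against 105 per Mb on the autosomal arms, and the median X gene was 2521 bp long, against 2080 bp. These values stand beside the shares of summits, and their part in the difference was not tested. Intergenic sequence held 11.3% of X summits, against 14% on the autosomes, with an adjusted p = 0.0864 in the exact test; arm 3R, with 11.8%, was close to X. Intergenic sequence covered 21.8% of X bases, against 27.2% of autosomal bases, so that the summit share divided by the base share was 0.516 on X and 0.515 on the autosomes. The intergenic share of summits passed with a narrower promoter window, 500 bp before and 50 bp after a start (adjusted p = 0.0319, Fisher's exact test) and among peaks kept without replicate 2 (adjusted p = 0.0414, the same exact test). Exons outside coding sequence held 6.72% of X summits, against 5.21%, and coding exons held 14 X summits (1.33%), against 0.985%; neither passed.

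Distances of intronic summits from gene starts were close on X and 2L and longer on 3R. The 390 intronic X summits were a median of 2754 bp from the nearest protein-coding start, against 3285 bp for the 1075 autosomal ones (2847 bp on 2L, 3058 bp on 3L and 3996 bp on 3R). Those more than 5 kb away made up 31.3% of intronic X summits, against 33.9% on 2L, 35.8% on 3L and 44% on 3R. As a share of all summits, introns 2 to 5 kb from a start held 11.3% (9.42 to 13.3) on X, against 7% (6.21 to 7.85) on the autosomes, with 6.22% to 8.08% on the single arms. Introns 5 to 20 kb from a start held 9.66% on X, against 8.94% on the autosomes and 10.7% on 3R alone. Of intron bases, 24.7% on X lay 2 to 5 kb from a start, against 21.9% on the autosomes. In the replicate lists, 67.6%, 68.1% and 67.5% of intronic X peaks lay within 5 kb of a start, against 60.6%, 61% and 62.4% of autosomal ones. These replicate shares were not split by arm, so they do not separate X from 2L or 3L. In the thresholded list it was 3R that stood apart. The intronic X summits lay in 212 protein-coding host genes, or 1.84 per host, against 603 hosts and 1.78 per host on the autosomes. The intron class also takes in noncoding genes. Of the 390 intronic X summits, 18 lay in introns of noncoding genes alone, against 9 of the 1075 autosomal ones. On the single arms these were 1 on 2L, 2 on 3L and 6 on 3R, so part of the higher intron share on X lay outside protein-coding genes. These distances and host counts were examined after the shares were known and carry no test.

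Several X genes held many of these summits. The gene with most was kirre, which encodes an immunoglobulin adhesion protein needed for myoblast fusion and spans 394149 bp (X, 2740384 to 3134532). It had 18 summits in its body, 13 in introns and 5 in promoter windows, and 9 had the consensus with up to 1 mismatch. The span of kirre also contains its paralogue rst and the eye colour gene w. CG1677 had 13 summits, Flo2, which encodes a flotillin, had 11, CHES-1-like, a forkhead transcription factor gene, had 10 and Smr, which encodes the corepressor SMRTER, had 9. All 9 in Smr were intronic, as were 9 of the 11 in Flo2 and 8 of the 13 in CG1677. Without these 61 summits the promoter share on X was 44.9% and the intron share 34.7%, and both still differed from the autosomes (adjusted p = 0.000817 and 0.000608, Fisher's exact test). This removal was chosen after seeing the data and takes summits from X alone.

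A gene counted as having a summit when one lay in its body or within 1 kb. By this rule 794 of the 2196 protein-coding X genes had a summit (36.2%, 34.1 to 38.2), against 37.2% on the autosomal arms (adjusted p = 0.482, Fisher's exact test). With the gene body alone the order reversed, with 17.2% of X genes, against 13.6% of autosomal genes (adjusted p = 0.000143, Fisher's exact test). In promoter windows, 23.5% (21.8 to 25.4) of X genes had a summit, against 27.1% (26.2 to 28) of autosomal genes. The share in promoter windows was not tested.

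X had fewer of its summits among the strongest su(Hw) peaks than the arms compared, but the difference did not pass in the main test. Of the 612 strongest thresholded peaks, 78 were on X. They made up 7.39% of X summits, against 9.95% of autosomal ones, which did not pass (adjusted p = 0.063, Fisher's exact test) but passed when arm 2R was counted among the autosomes (10.5%, adjusted p = 0.0111, same exact test). Its adjusted p in the exact test was also 0.0473 under 3 alternatives that left this share as it was and changed others among the 18. On the single arms the strongest peaks made up 10.2% of summits on 2L, 11.3% on 3L and 8.61% (7.22 to 10.2) on 3R. The 3R interval overlapped that of X (5.88 to 9.13). As a share of peaks on the 4 arms, X had 16.9% (13.6 to 20.6) of the strongest 612 peaks in the thresholded list. The shares in replicates 1, 2 and 3 were 17.5%, 17.7% and 17.4%. In the weakest 613 it had 24.5% (20.7 to 28.6), and 22.6%, 23% and 22% in the replicates. In all 3 replicate lists the strongest peaks thus held less than the 21.9% of length on X, and the X share showed no steady course between. Of the 50 strongest peaks, 35 were on these 4 arms and 2 of those were on X. The median pooled signal was 401 on X and 408 on the autosomes, and the 95th percentile was 2302 on X, against 2413 to 3695 on the 3 arms. The signal is the peak caller's own value on a scale the files do not define. The weakest thresholded X peak and the strongest X peak left out of the list both had a signal of 236.

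**Figure D3:**
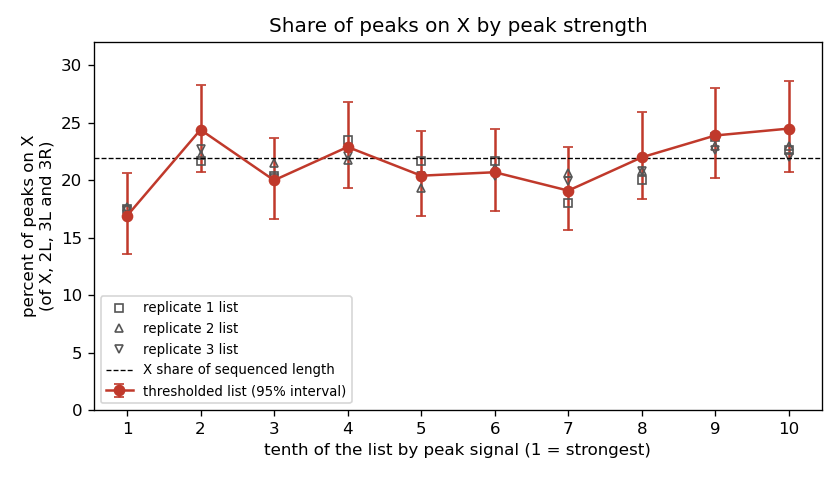
Percent of peaks of X, 2L, 3L and 3R that lie on X (y axis) in 10 equal ranges of peak signal (x axis, strongest first), for the thresholded list (filled circles, exact 95% intervals) and the 3 replicate lists (open symbols); the dashed line is the 21.9% of sequenced length. The strongest range lies below the line in all 4 lists (16.9% to 17.7%).

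The 15 strongest X peaks lay at genes of varied function and ranked alike in the replicates. The strongest lay at 3570160 to 3570909, in introns of both ppk8, which encodes a channel subunit of the DEG/ENaC family, and DIP-alpha, which encodes an immunoglobulin protein of synaptic wiring. It had rank 23 by pooled signal (9816) and ranks of 25, 30 and 24 in replicates 1, 2 and 3. The next peak (rank 49) lay in a noncoding gene 15635 bp from the start of Cph, a transcription factor gene, with ranks of 45, 41 and 56. Neither of these peaks had an exact consensus: the first had 1 mismatch and the second no match with up to 1 mismatch. The third (rank 65) lay in the promoter window of wgn, which encodes a tumour necrosis factor receptor, and ranked 71, 70 and 60. The fourth (rank 79) lay in an exon of Cbp80, which encodes a subunit of the nuclear cap-binding complex, and ranked 84, 77 and 71. The peak nearest to upd2 (rank 80) was intergenic, 3803 bp from its start, and varied more, with ranks of 54, 72 and 98. The peak just past dnc (rank 87), the gene of a cAMP phosphodiesterase, ranked 78, 75 and 97. No replicate placed any of the 15 peaks below rank 159, and all 15 were top-ranked in the 3 replicates, meaning among the 6127 strongest peaks with a summit within 200 bp.

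The other strong peaks included the one past y and one inside kirre. The peak past y spanned 361290 to 362045 in an intron of CG32816, just past the end of y at 361245, with rank 93 and ranks of 89, 93 and 104 in the replicates. The strongest kirre peak (2949023 to 2949745, rank 96) was intronic and ranked 106, 98 and 90. The peak at CG3626 (rank 101) lay in its promoter window, within 1 kb of the end of norpA, which encodes the phospholipase C of phototransduction. The remaining peaks of the 15 lay at CG42699 and CG3097, CG15452, CG32812, RpS15Aa, CG15468 and RunxA. By class, 6 of the 15 were intronic, 5 intergenic, 2 in promoter windows and 2 in exons. An exact consensus lay at 4 of them (upd2, past y, RpS15Aa and CG15468) and a match with 1 mismatch at 5 more. The other 6 had no match with up to 1 mismatch, and the closest sequence within 100 bp had 2 mismatches. How often windows along X come that close was not counted.

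**Figure D4:**
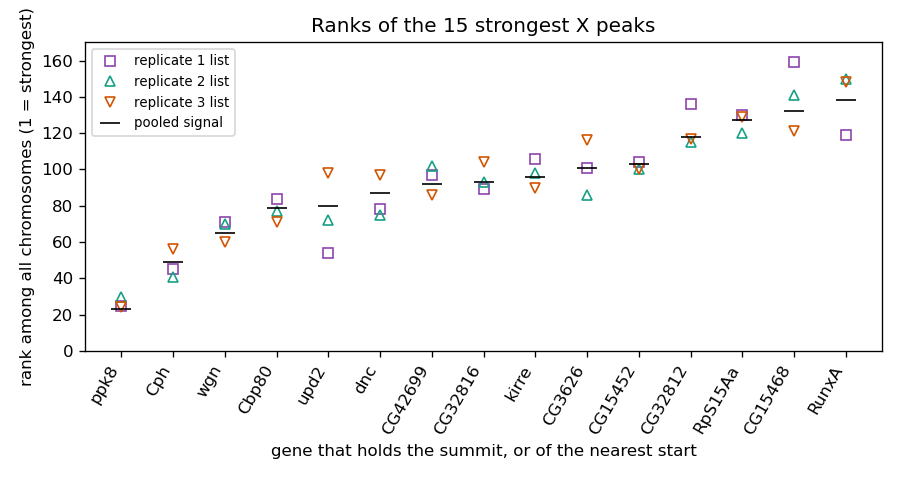
Rank among the peaks of all chromosomes (y axis, 1 is strongest) of the 15 strongest X peaks (x axis, by the gene that holds the summit or has the nearest start) in each replicate list (open symbols) and by pooled signal (bars). Ranks in replicates stay close to the pooled rank, for example 25, 30 and 24 at ppk8, and spread most widely at upd2 (54, 72 and 98).

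Most X peaks were repeated by the replicates. Of the 1056 X summits, 720 (68.2%, 65.3 to 71) were top-ranked in all 3 replicates, against 70.5% of autosomal summits (adjusted p = 0.306, Fisher's exact test). A further 242 (22.9%) were top-ranked in 2 replicates, 88 in 1 and 6 in none, and 1030 (97.5%) had a peak of any strength in all 3 lists. The thresholded list was made from these replicates, so these shares are not independent of it. The X peaks whose ranks differed most included those at CG42699, Gga, Rubicon and PIG-K. The CG42699 one (rank 1568) shared its interval with the strong peak of rank 92 at the same gene, and replicates 2 and 3 had no summit within 200 bp of it. Gga encodes a clathrin adaptor of the trans-Golgi. The peak of rank 5992 in its promoter window also shared its interval with a stronger peak. Both were matched to the same peak of replicate 3, at rank 297. The weaker peak ranked 8095 in replicate 1 and was not matched in replicate 2. The peak at Rubicon was not matched in replicate 1, and that at PIG-K not in replicate 3.

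The shares of X and autosomal summits with the su(Hw) consensus could not be told apart. An exact match lay within 100 bp of 68 X summits (6.44%, 5.03 to 8.09), against 7% (6.21 to 7.85) on the autosomes (adjusted p = 0.617, odds ratio 0.915, 0.695 to 1.2, Fisher's exact test). Of all 201-bp windows laid end to end along X, 0.437% held an exact match, which puts X summits 14.7-fold above the X windows; the autosomal windows had 0.374%. With up to 1 mismatch the shares were 23.5% on X and 21.4% on the autosomes (adjusted p = 0.306, same exact test; odds ratio 1.13, 0.96 to 1.33), against 5.79% of X windows and 5.54% of autosomal windows. The core TGCATA alone was at 25.4% of X summits, against 23.5%, and at 12.5% of windows on both. The median distance of the exact match from the summit was 16.5 bp on X and on the autosomes, and on X 91.2% lay within 50 bp, against 87.8%. Among X summits whose best match had 1 mismatch, 31.7% had it at position 4 of the 12, counted from the 5′ end, and 13.3% at position 7, against 30.3% and 16.8% on the autosomes.

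The consensus followed strength and location on X as it did on the autosomes. At ranks 1 to 1225 it was present, with up to 1 mismatch, at 43.3% (36.3 to 50.4) of X summits, against 39.7% on the autosomes, and at ranks 4902 to 6127 at 15.4% on X, against 13.4%. Promoter summits had it least, at 9.74% (7.19 to 12.8) on X and 11.3% on the autosomes. Intronic summits had it at 32.3% (27.7 to 37.2) on X and 29.8% on the autosomes, and intergenic summits at 47.9% (38.7 to 57.2) on X and 39.2% (35 to 43.4) on the autosomes. The intervals of X and autosomes overlapped in each of these classes. Seen from the sequence, X held 566 exact matches, or 24.1 per Mb, against 20.2 per Mb on the autosomes. A thresholded summit lay within 100 bp of 12.2% (9.61 to 15.2) of the X matches, against 17% (15.2 to 18.9) of the autosomal matches. Arm 2L was close to X in this respect, with 12.8%, while 3L had 17.8% and 3R 19.6%. With any entry of the pooled list, background included, the shares were 29.5% on X and 30.2% on the autosomes. This count was not among the 18 shares and was not tested.

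Other sequences were searched in the same windows, on both strands. A pair of CGATA within 40 bp, a sequence known to be bound by BEAF-32, another insulator protein, was at 104 X summits (9.85%, 8.12 to 11.8), against 8.22% on the autosomes, which did not pass (adjusted p = 0.242, Fisher's exact test). A CGATA read on both strands of an overlapping palindrome also counted as a pair. X had more such pairs along its whole length, with 196 matches per Mb, against 123, and 2.6% of windows, against 1.88%. The pairs lay mostly at promoters, at 18.2% (14.8 to 22) of promoter summits on X and 14.5% (13 to 16.1) on the autosomes. In introns they were at 15 of the 390 X summits (3.85%, 2.17 to 6.26), against 14 of 1075 (1.3%, 0.714 to 2.18) on the autosomes. The replicate lists gave 3.32%, 2.77% and 3.64% on X, against 1.54%, 1.44% and 1.44% on the autosomes. This intronic difference was picked after its values were seen and was not tested. The 4 strongest intronic X peaks with such a pair are printed on the plus strand, with CGATA and its reverse complement in capitals.
ppk8 and DIP-alpha, chrX:3570578-3570627: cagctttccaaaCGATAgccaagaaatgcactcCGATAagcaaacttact
kirre, chrX:2949313-2949347: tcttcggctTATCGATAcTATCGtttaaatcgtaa
Tlk, chrX:3744383-3744450: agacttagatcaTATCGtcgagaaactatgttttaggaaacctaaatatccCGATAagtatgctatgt
out, chrX:19315543-19315608: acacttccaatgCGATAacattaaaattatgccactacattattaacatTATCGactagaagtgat
Both strong peaks described above, at ppk8 and kirre, are thus among them, each beside a su(Hw) match with 1 mismatch. Tlk encodes the Tousled-like kinase. The peaks at Tlk and out ranked 692 and 843.

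**Figure D5:**
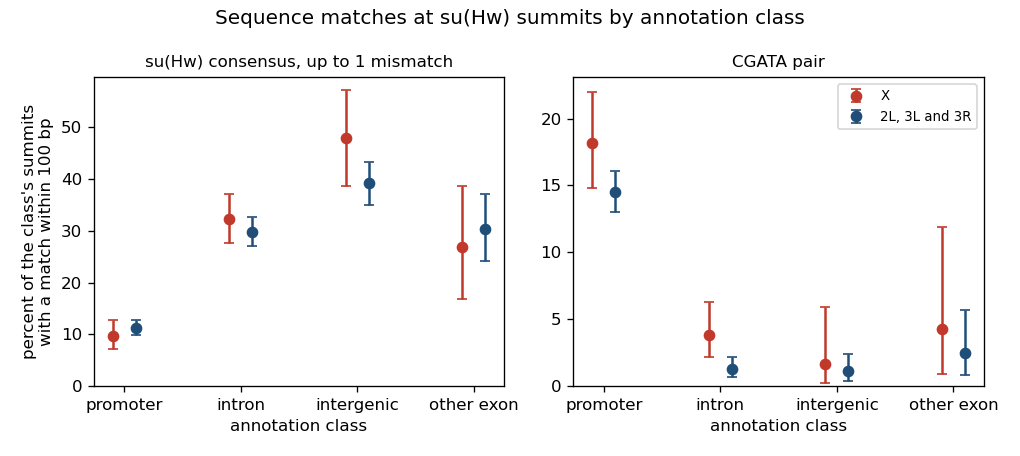
Percent of summits (y axis) with the su(Hw) consensus (up to 1 mismatch, left) or a CGATA pair (right) within 100 bp, by annotation class (x axis), for X and for 2L, 3L and 3R together; bars are exact 95% intervals and the y axes differ. The consensus is least frequent at promoters (9.74% on X) and the CGATA pair most frequent there (18.2% on X), on X as on the autosomes.

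Runs of 5 CA units in a row were more common along X than along the autosomes. At summits the shares could not be told apart within 100 bp but differed within 200 bp. X had 642 matches per Mb, against 272 per Mb, where a longer run gave several overlapping matches. Of X windows, 3.31% held a match, against 1.75% of autosomal windows. Such runs were at 6.43% of the pooled X entries, background included, more than 1 kb from any thresholded summit, against 3.83% on the autosomes. At thresholded summits they were at 3.5% (2.48 to 4.8) on X, against 3.01% (2.49 to 3.6), with an adjusted p = 0.545 in Fisher's exact test. With 200 bp on either side of the summit in place of 100 bp, the shares were 8.81% on X and 5.62% on the autosomes and passed (adjusted p = 0.00157, same exact test). The GAGA factor sequence GAGAGAG was at 4.55% of X summits, against 4.07%, and at 2.95% of X windows, against 2.33%. The Zelda sequence CAGGTAG was at 0.947% of X summits, against 0.985%, and at 1% of X windows, against 1.09%. Neither passed the exact test (adjusted p = 0.549 and 1).

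The spacing of summits on X could not be told from that on the autosomes. Another summit lay within 1 kb of 27.9% of X summits, against 30.1%, and within 5 kb of 61.5%, against 62.7% (adjusted p = 0.308 and 0.549, Fisher's exact test). The median gap between neighbouring summits was 8117 bp on X and 7763 bp on the autosomes, and 11.1% of X gaps were no longer than 300 bp, against 12.4%. When neighbouring summits up to 500 bp from each other were counted as 1 site, the order within 1 kb reversed, with 6.32% of X sites, against 4.75% of autosomal sites, which did not pass either (adjusted p = 0.163, Fisher's exact test).

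The genes at which su(Hw) was first studied through gypsy insertions did not all have a summit in the body or within 1 kb. Among 7 X genes with gypsy alleles that su(Hw) mutations suppress, y, ct and f had a summit and ac, sc, lz and Myc had none. No summit lay in the body of y, and the strongest near it was in an intron of CG32816. Over all X protein-coding genes the share with a summit is 36.2%. The homeobox gene ct had 6 summits in its body, the strongest in an exon (7676942 to 7677276) with rank 1114 and ranks of 1103, 1032 and 1249 in the replicates. The gene f, which shapes the bristles, had 2 in promoter windows, the stronger (17262112 to 17262470) with rank 661 (644, 641 and 709 in the replicates) and an exact consensus. The labels do not say that this line carries gypsy at any of these genes, and the deposited lists give reference coordinates alone. Among 25 visible marker loci, 13 had a summit. After y, the strongest were at ec (rank 398, in its promoter window), f, v, ct and w. The single summit near w, rank 1880, was not inside it but in the promoter window of CG32795.

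Of 9 protein-coding genes of sex determination and dosage compensation, 2 (Sxl and snf) had a summit, against 36.2% of all X genes. Sxl, the switch gene of sex determination, had 4 in its body, of which the strongest was intronic, with rank 2382 and ranks of 2539, 2378 and 2549. The snf summit, rank 4198, lay in the promoter window it shares with Cdk7. Of the noncoding roX genes, roX1 had no summit and roX2 had 1 within 1 kb (11580260 to 11580783, rank 2872), which lay in the promoter window of nod, the gene of a kinesin-like protein. That peak ranked 2258, 4374 and 3158 in the replicates.

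Genes of early patterning were near the background, with 8 of 22 having a summit, against 36.2% of X genes. The strongest of these were at sgg, the gene of glycogen synthase kinase 3 (rank 531, promoter), ct, N (rank 1684, in an intron), shf, Sxl and sog. The summit near shf, a Hedgehog pathway gene, lay in the promoter window of Coq7. N, the Notch receptor gene, had 2 summits in its body, and no summit lay at ac or sc, the proneural genes beside y.

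Genes of ribosomal proteins, of neuronal function and of adhesion and the cytoskeleton had a summit in larger shares than the 36.2% of all X genes. Of 14 X genes of ribosomal proteins, 13 had a summit, and the exception, named after its value was seen, was RpL35. The strongest was the intergenic one past RpS15Aa (rank 127), and the next were at RpL22 (rank 1145), RpL37-1 (1199), RpS10b (1540), RpS28b (1850) and RpL17 (1939). Those of RpL22, RpS10b, RpS28b and RpL17 lay in the genes' own promoter windows without the consensus, while the one near RpL37-1 was intergenic with an exact consensus. RpS14a and RpS14b, near-identical neighbours, shared a summit. Of 26 neuronal genes, 15 had a summit. The strongest were near dnc and norpA, both outside the gene and within 1 kb of its end. Next were those at Appl (rank 567, in an intron), eag (613, promoter), elav (810, promoter) and fne (1944, in an intron with an exact consensus). Of 24 genes of adhesion and the cytoskeleton, 20 had one, the strongest at kirre, Flo2 (rank 654, in an intron), Rala (770), baz (912), Act5C (1605) and sdk (1681). The Act5C summit lay in its promoter window and had an exact consensus. Many of the last 2 lists are long genes, and longer genes have more room for a summit; gene length was not taken into account in these counts.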

How the data were processed

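Peaks came from ChIP-seq of su(Hw)-eGFP in 3 replicates of whole embryos, with fragments of 200 to 800 bp per the labels. The authors deposited 1 peak list per replicate, a pooled list named as peaks and background, and a thresholded list. The signal in the deposited lists comes from the authors' peak caller and served to rank and describe peaks. The deposited −log10 q-values were not used for ranking. The sources used here do not give the peak caller, the aligner, the threshold of the irreproducible discovery rate or the read depth. The thresholded dm6 list was read against Release 6 of the genome and Ensembl annotation release 115, and 0 peaks lay past a chromosome end. Each summit took the first class that applied, in the order promoter, coding exon, any other exon, intron, intergenic, and transposable elements were left out. Sequences had to lie wholly within 100 bp of the summit. Fisher's exact test, two-sided, compared shares of X with those of 2L, 3L and 3R (Benjamini-Hochberg over 18 shares, called under 0.05). Replicate lists, taken as their 6127 strongest peaks, were compared by an exact sign-flip permutation test.

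Named genes were those of the 15 strongest X peaks, the 5 genes with most summits, 13 fixed loci, up to 6 members per gene list with the strongest summit, the 5 peaks with the widest spread of ranks over the replicates, and the peaks printed as sequence. One peak that this rule names is not reported here. Syn1 and nAChRalpha4 were listed but not found on X under those names. The members, lists, sequences and tests were chosen with earlier results of these data known. Alternatives changed the set of summits, the promoter, motif and gene windows, the matching distance and the length of the replicate lists. Functions were tested on simulated data. The tools were Python 3.11.15, numpy 2.4.6, pandas 2.3.3, scipy 1.17.1 and matplotlib 3.10.9.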

Additional observations from a re-analysis of the deposited data

Results flagged for a closer look

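The promoter share of summits, 43.8% on X and 51.9% on 2L, 3L and 3R, was singled out because the test of the difference itself passed, with a difference of -8.17 points. The intron share, 36.9% on X and 27.9% on the autosomes, was singled out for the same reason, with a difference of 9.07 points. In both cases the arms compared each lay on the same side of X, and so did each of the 3 replicates.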

How the results depend on the processing

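Differences are given as X minus autosomes, in points. The promoter and intron differences kept their direction and stayed past the threshold in all 9 alternative sets and windows tried for each, with values from -10.3 to -6.18 for promoters and from 6.81 to 12.6 for introns. The share of summits on X did not pass in any of its alternatives (p from 0.13 to 0.825, exact binomial test). Samples could not be paired across groups, since there was 1 group, and X and autosomes were compared within each replicate. Read depth is unknown, so no limit of detection can be given, and leaving out a replicate also adds a filter on the other 2, since the list itself came from all 3.

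Calls were gained for the intergenic share with the narrower promoter window (-3.55) and without replicate 2 (-3.71, with -3.18 at the other end of the range over replicates left out), for CA units within 200 bp (3.18) and for the strongest 612 peaks with 2R (-3.1). The strongest 612 also passed, at an unchanged -2.57 (adjusted p = 0.0473, Fisher's exact test), with the narrower promoter window, the motif window of 200 bp and the gene body alone, through the adjustment over the 18 shares. Of the shares that had not passed, several changed direction. Genes with a summit did so with the gene body alone (3.6), which passed. The others did not pass. With merged sites, neighbours within 1 kb (1.58) and 5 kb (0.286) did. Among the 3063 strongest peaks these were 1.01 and 3.74, and coding exons -0.253, the CGATA pair -0.791, GAGAGAG -0.51, support in all 3 replicates 0.913 and the weakest peaks -0.581. Within 50 bp, CA units were at -0.0131, CAGGTAG at 0.248 and GAGAGAG at -0.075, and with 2R CAGGTAG was at 0.0352. With each replicate left out in turn, neighbours within 5 kb ranged from -2.01 to 0.531, coding exons from -0.254 to -0.218, CAGGTAG from -0.177 to 0.0448 and support in all 3 replicates from -1.66 to 0.145. In the replicate lists, taking all peaks, which may include background, turned the promoter difference to 0.401. It gave 2.65 for introns, -3.87 for intergenic summits and -1.35 for the strongest peaks. With 3063 peaks per list these were -9.98 for promoters, 12.2 for introns and -4.7 for intergenic summits. The cause of these changes was not tested. In all, 29 values of the replicate lists at other lengths moved beyond the spread between replicates, some of them of shares that had not passed and with a change of sign, and 186 stayed on their side of the threshold or within the spread between replicates.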
